A study of Mus musculus with 12 samples.

Results

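Spleens of 3 BALB/c mice deficient in Il1rn (ko) were compared with spleens of 3 wild-type BALB/c mice (wt), all at 4 months of age. These are 6 of the 12 arrays of the series, chosen by their titles. The other 6 arrays hold the same genotypes at 1 month, with 3 mice of each, and were used for the spread between mice and for tests of a difference between the ages. Every animal gave 1 array of Trizol-extracted total RNA from whole spleen, labelled with biotin and hybridised to an Affymetrix 3' expression array. No treatment is named, and how the Il1rn allele was made and the sex of the mice are not given in the sources used here. The title of the study asks which genes are related to arthritis at a particular phase.

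Il1rn encodes the interleukin-1 receptor antagonist, a secreted protein that occupies the IL-1 receptor without signalling and so competes with IL-1 alpha and IL-1 beta. Its loss on the BALB/c background is known to cause spontaneous arthritis. The mouse spleen combines white pulp, made of B and T lymphocytes, with red pulp, where macrophages clear old red cells. The red pulp of adult mice also makes blood cells, including red cells, platelets and granulocytes, and this production is known to grow during inflammation or anaemia.

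The unit throughout is the probe set signal, a linear brightness value scaled so that the 2% trimmed mean of each array is 500. Of 45101 probe sets, 27041 reached a signal of 100 in at least 3 of the 12 arrays and were tested. Differences are log2 units of the signal plus an offset of 32, which shrinks the fold change of dim genes. The term called means a Benjamini-Hochberg adjusted p under 0.05 from limma, fitted with 4 group means over all 12 arrays. The 6 arrays had median signals of 128 to 142, and between 54.3% and 57.4% of probe sets at 100 or more. Their ratio of 3' to 5' signal for Gapdh was 0.649 to 0.748, except in wt replicate 1 with 0.999. The number of mice, 3 a group, limits the precision of every value.

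The labelled tissue was visible in all 6 arrays. Cd79b, part of the B cell receptor, had signals of 12720, 14600 and 11030 in the 3 wt arrays and 10920, 8951 and 10090 in the 3 ko arrays. Spic, a transcription factor that defines red pulp macrophages, had 4833, 5064 and 4482 in wt and 4705, 5312 and 4945 in ko. Cxcl13, the chemokine of B cell follicles, had 15610, 11160 and 11860 in wt and 9831, 10110 and 9886 in ko. None of these genes was called.

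Transcripts of the pancreas, which lies against the spleen, were set apart because 1 wt array carries them. The digestive enzyme precursor Ctrb1 had a signal of 28250 in wt replicate 2, against 16.93 and 151.6 in the other wt arrays and 10.24 to 20.15 in ko. In the whole series, 11 probe sets lay at least 8-fold higher in that array than in each of the other 11 arrays, and all 11 belong to the pancreas list. The summed signal of the 19 pancreas genes tested was 151730 in wt replicate 2 and 4847 to 5320 in the other 5 arrays at 4 months. None of the 26 pancreas probe sets tested was called, and none of these genes is counted in another list.

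Il1rn itself was lower in the arrays labelled ko. Its brightest probe set had signals of 187.7, 161.1 and 278.4 in wt and 40.82, 10.1 and 14.78 in ko. Every ko array lay below every wt array, a log2 difference of -2.17 (SE 0.35, limma adjusted p = 0.0034). The call held when each of the 6 arrays was left out in turn. A further Il1rn probe set had 207.9, 102.6 and 119.9 in wt and 51.59, 34.58 and 53.23 in ko. Its groups did not overlap either, but at -1.12 (SE 0.31, limma adjusted p = 0.0739) it missed the threshold. The remaining one overlapped between the genotypes (-0.76, SE 0.56, limma adjusted p = 0.543). Which exon each probe set reads was not examined, so the probe sets check the labels only as far as they fall in the lost transcript.

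Other genes of the IL-1 pathway did not pass the test. Il1b, which encodes IL-1 beta, had signals of 1632, 1880 and 3788 in wt and 1419, 1329 and 1519 in ko (-0.66, SE 0.29, limma adjusted p = 0.276). All ko values lay below all wt values, although wt replicate 3 alone was far above the rest. Il1r1, the signalling receptor, had 1085, 533.1 and 945.6 in wt and 512.7, 594.8 and 521.0 in ko (-0.57, SE 0.25, limma adjusted p = 0.274), and the groups overlapped. Of 22 IL-1 family receptors and signalling genes tested, 0 were called by limma, between -0.57 and 0.50. Of the 34 genes tested among the 50 on each side of Il1rn in the gene order of the mouse genome, 0 were called by limma, with a median of 0.02.

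Over all tested probe sets, 621 (2.3%) were called at 4 months, 481 higher in ko (1.78%) and 140 lower (0.518%). The genotypes did not overlap in any of the 621, nor did they in 22.3% of all probe sets tested. To count genes, 1 probe set was kept for each of 12339 genes, the one with the highest mean. All ko arrays lay above all wt arrays in 1637 of these genes and below them in 1302, together 23.8%. A positive log2 difference was seen in 6460, and the median over all genes was 0.02. Of these genes 365 (2.96%) were called, 306 higher (2.48%) and 59 lower (0.478%). The counts depended on single arrays: 277, 246 or 161 probe sets were called without ko replicate 1, 2 or 3, and 274, 991 or 245 without wt replicate 1, 2 or 3. Of the 621, 134 probe sets were called in all 6 of these fits, 114 higher and 20 lower. In whole-tissue RNA, more cells of a type and more RNA per cell cannot be told apart, and this holds for each list below.

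**Figure D1:**
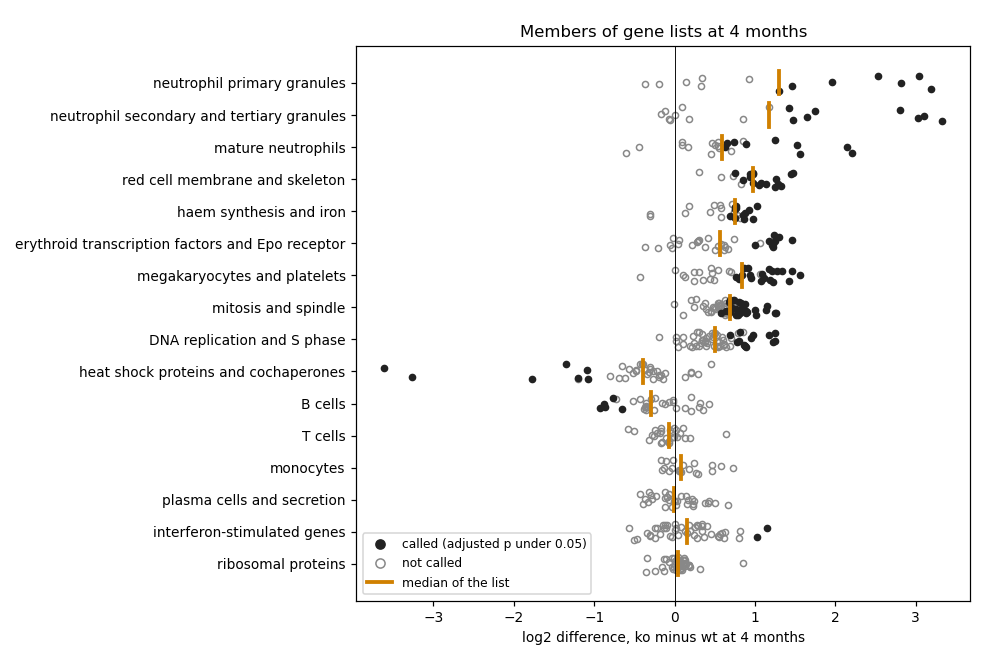
Log2 difference, ko minus wt at 4 months, of every tested member of 16 gene lists, 1 probe set per gene. Filled points passed the limma threshold, open points did not, and the orange bar is the median of the list. Granule, red cell, megakaryocyte and division genes lie mostly to the right of 0 and heat shock genes mostly to the left. The medians of the T cell, plasma cell and ribosomal protein lists lie near 0.

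Neutrophil granule genes had the largest upward differences. Neutrophils fill their granules in sequence as they mature: primary granules with proteases and myeloperoxidase at the promyelocyte stage, then secondary and tertiary granules with iron-binding and antimicrobial proteins. The stages can therefore be read separately in the transcripts of a tissue. Several of these genes are known targets of C/EBP transcription factors. One of them, Ngp, encodes neutrophilic granule protein of the cathelicidin-related family, and the 250 bases before its start (chr9:110419558-110419807, plus strand, GRCm38.p6, RefSeq) are shown because they hold a C/EBP match 138 bases before the start and another 11 bases before it, both in capitals:

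Ngp: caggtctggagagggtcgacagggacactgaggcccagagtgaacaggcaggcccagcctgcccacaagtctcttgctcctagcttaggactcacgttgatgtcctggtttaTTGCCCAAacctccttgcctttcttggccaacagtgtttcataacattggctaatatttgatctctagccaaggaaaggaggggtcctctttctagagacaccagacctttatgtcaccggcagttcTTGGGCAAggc

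The letters searched were TTGCNNAA and, for the other strand, TTNNGCAA, where N is any base. They stood in the 250 bases before the start of 6 of the 15 secondary and tertiary granule genes found in the promoter table, namely Adam8, Lcn2, Ltf, Lyz1, Mmp8 and Ngp, and in 10.8% of all 27025 genes of that table. For primary granule genes the count was 2 of 11, and for mature neutrophil genes it was 4 of 19. A match describes these letters and is not a measured binding site.

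Among primary granule genes, 7 of 13 tested were called higher and 0 lower, with a median of 1.30 where all genes had 0.02. Prtn3, which encodes proteinase 3, had signals of 66.29, 129.8 and 85.47 in wt and 1295, 945.7 and 1071 in ko, a log2 difference of 3.19 (SE 0.24, limma adjusted p = 2.19e-06). Mpo, myeloperoxidase, had 254.2, 367.9 and 198.1 in wt and 2596, 1433 and 2364 in ko (2.82, SE 0.25, limma adjusted p = 1.3e-05). In both genes the lowest ko spleen was more than 3 times the highest wt spleen. Elane, neutrophil elastase, had 58.62, 282.5 and 70.9 in wt and 1370, 976.6 and 1113 in ko (3.04, SE 0.39, limma adjusted p = 0.000641). Chil3, a chitinase-like lectin, rose by 1.95 (SE 0.22), Ctsg, cathepsin G, by 2.53 (SE 0.21), and Ms4a3, a membrane protein of granulocyte precursors, by 1.46 (SE 0.25). Fcnb, a lectin of the ficolin family, was the one called member that lost its call without single arrays, namely ko replicate 1, 2 or 3 or wt replicate 3 (limma adjusted p of 0.121 at most). Ctsc, the protease that activates granule proteases, stood at -0.37 and was not called.

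Secondary and tertiary granule genes followed, with 8 of 17 called higher, 0 lower and a median of 1.17. Lcn2, the iron-scavenging lipocalin, had signals of 141.6, 323.2 and 84.54 in wt and 2221, 1351 and 2312 in ko. That is 10.1-fold on the offset scale (log2 3.33, SE 0.33, limma adjusted p = 4.56e-05), the largest rise of any called gene in these arrays. Camp, the cathelicidin antimicrobial peptide, had 419.6, 805 and 452 in wt and 4896, 4292 and 4599 in ko (3.02, SE 0.21, limma adjusted p = 1.03e-06). Ngp had 1035, 1890 and 761.6 in wt and 11900, 7937 and 10680 in ko (3.10, SE 0.24, limma adjusted p = 3.27e-06). Of the 3 wt spleens, replicate 2 was the highest for each of these genes and still far below every ko spleen. Ltf, lactoferrin, rose by 2.80 (SE 0.27) and Cd177, a surface protein of neutrophils, by 1.65 (SE 0.25). Olfm4 lost its call without ko replicate 1, 2 or 3 or wt replicate 1 (limma adjusted p of 0.0807 at most), and Mmp8, neutrophil collagenase, without replicate 1 or 3 of either genotype (0.113 at most). The list also holds genes that macrophages share, and these stood near 0: Lyz2, lysozyme, at -0.16, Cybb, the oxidase subunit, at -0.08 and Itgam, an integrin chain, at 0.18. With every probe set of these genes counted rather than the brightest of each gene, the medians were 0.64 for primary and 0.51 for secondary and tertiary granules.

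Genes of mature neutrophils changed less evenly: 9 of 22 were called higher, 0 lower, and the median was 0.59. S100a9, a subunit of the calcium-binding alarmin calprotectin, had signals of 3824, 4662 and 3879 in wt and 21020, 15750 and 20730 in ko (2.20, SE 0.15, limma adjusted p = 1.03e-06). Its partner S100a8 had 3813, 5483 and 3888 in wt and 20160, 16620 and 21270 in ko (2.14, SE 0.15, limma adjusted p = 1.03e-06). The genotypes did not overlap in either subunit, and ko replicate 2 was the lowest ko spleen in both. Slpi, a secreted inhibitor of neutrophil proteases, had 3798, 3229 and 3771 in wt and 11960, 8402 and 11890 in ko (1.56, SE 0.16, limma adjusted p = 5.45e-05). By contrast Cxcr2, the chemokine receptor of circulating neutrophils, had 140.9, 167.5 and 245.0 in wt and 285.4, 191.5 and 356.2 in ko, which overlapped (0.51, SE 0.25, limma adjusted p = 0.331). S100a8, S100a9, Slpi and Lrg1 kept their calls without each array in turn. Csf3r, the receptor for granulocyte colony-stimulating factor, rose by 0.66 (SE 0.16). Leaving out any 1 array other than ko replicate 2 ended that call (limma adjusted p of 0.21 at most). Without ko replicate 1, 2 or 3 the count of 9 became 4, 5 or 5, and without wt replicate 1, 2 or 3 it became 4, 7 or 6.

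The transcription factors and enzymes that other myeloid cells use gave no call, unlike the granule genes. Of 16 granulocyte transcription factors tested, 0 were called by limma, with a median of 0.11. Cebpa, which starts granulocyte commitment, had signals of 923.2, 797.6 and 823.9 in wt and 959.6, 799.2 and 929.2 in ko (0.07, SE 0.22). Gfi1, a repressor needed for neutrophil development, had 238.1, 135.1 and 182.5 in wt and 185.6, 158.8 and 162.7 in ko (-0.09, SE 0.25). Cebpb had 887.9, 818.7 and 1453 in wt and 1440, 1343 and 1666 in ko, which overlapped (0.52, SE 0.32, limma adjusted p = 0.455). Of the 16, 11 had a positive log2 difference, against 6460 of all 12339 genes. All ko spleens lay above all wt spleens in 3 and below in 0, against 1637 and 1302 of all genes. Of 5 subunits of the phagocyte NADPH oxidase, 0 were called, and of 20 monocyte genes, 0 were called, with medians of -0.08 and 0.08. The summed signal of the monocyte list was 74938 to 84818 in wt and 74695 to 85059 in ko.

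**Figure D2:**
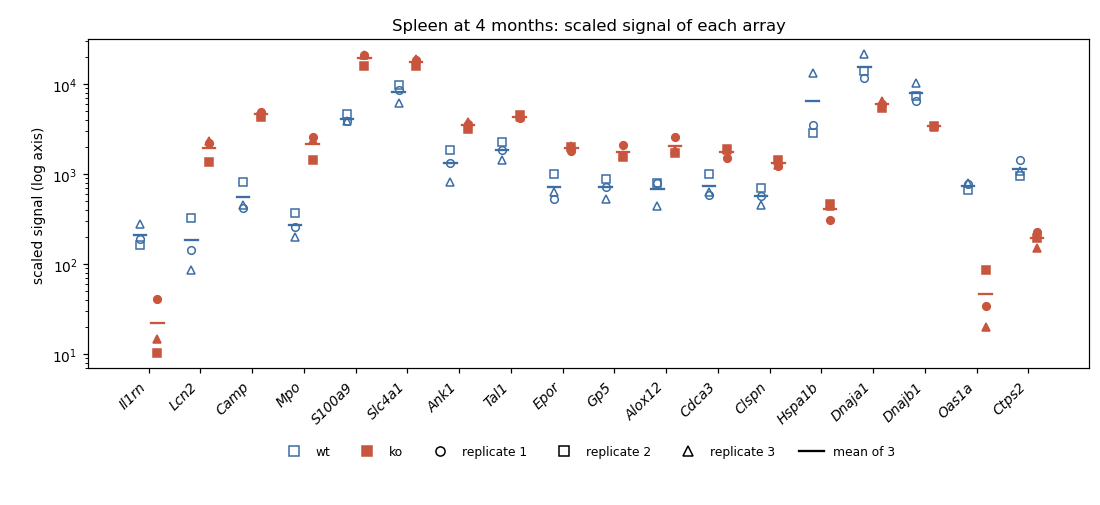
Scaled signal, on a log axis, of 18 genes in each of the 6 arrays at 4 months. Open blue symbols are wt, filled red symbols are ko, the symbol shape is the replicate and the bar is the mean of 3. In all 18 genes shown the symbols of the genotypes do not overlap, with Lcn2 between 84.54 and 323.2 in wt and between 1351 and 2312 in ko.

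Red cell genes were the broadest group with higher signal in ko. Erythroblasts assemble a membrane skeleton of spectrin, ankyrin and band proteins, make haem in a chain of mitochondrial and cytosolic enzymes, and fill with globin. Their programme is driven by GATA1, TAL1 and KLF1 and by erythropoietin through its receptor. Of 20 red cell membrane and skeleton genes tested, 16 were called higher and 0 lower, with a median of 0.98. All 20 had a positive log2 difference, and in 18 all ko spleens lay above all wt spleens, against 6460 and 1637 of all 12339 genes.

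Slc4a1, the anion exchanger band 3, had signals of 8632, 9716 and 6097 in wt and 18220, 15990 and 18730 in ko (1.14, SE 0.16, limma adjusted p = 0.00147). Ank1, the ankyrin that ties band 3 to spectrin, had 1304, 1844 and 813.5 in wt and 3543, 3125 and 3765 in ko (1.45, SE 0.21, limma adjusted p = 0.00196). Dmtn, which bundles actin in the skeleton, had 879.9, 1426 and 746.4 in wt and 3086, 2407 and 2897 in ko (1.48, SE 0.23, limma adjusted p = 0.00316). In each of these genes wt replicate 2 was the highest wt spleen and wt replicate 3 the lowest, while the ko spleens lay close together. Rhag, the Rh-associated glycoprotein, rose by 1.08 (SE 0.16), Icam4, which binds red cells to macrophages, by 1.29 (SE 0.19) and Gypc, glycophorin C, by 0.85 (SE 0.15). These 6 genes kept their calls without each array in turn. The count of 16 became 11, 10 or 6 without ko replicate 1, 2 or 3 and 9, 17 or 8 without wt replicate 1, 2 or 3. Epb42, a protein that binds band 3, had 587.2, 1071 and 1148 in wt and 958.6, 2814 and 1550 in ko in its brighter probe set, which overlapped (0.82, SE 0.29, limma adjusted p = 0.163). The other Epb42 probe set had 535.5, 1128 and 695.3 in wt and 1927, 1877 and 1917 in ko, rose by 1.31 (SE 0.20, limma adjusted p = 0.00235) and kept its call without each array in turn, so the probe sets of this gene disagree.

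Haem synthesis and iron genes moved by smaller amounts, with 12 of 25 called higher, 0 lower and a median of 0.75. Alad, the enzyme that joins 2 molecules of aminolevulinic acid, had signals of 6815, 11110 and 6558 in wt and 14090, 14650 and 16550 in ko (0.92, SE 0.18, limma adjusted p = 0.0134). Ppox, which makes protoporphyrin, had 776.8, 1482 and 951.3 in wt and 2028, 2237 and 2131 in ko (1.02, SE 0.23, limma adjusted p = 0.0256). The groups did not overlap in either gene, but wt replicate 2 stood nearer to ko than the other wt spleens. None of the 12 was called in all 6 fits with 1 array left out: the count was 7, 2 or 1 without ko replicate 1, 2 or 3 and 2, 16 or 0 without wt replicate 1, 2 or 3. Fech, ferrochelatase, which inserts the iron, was not called in its brightest probe set (0.74, SE 0.20, limma adjusted p = 0.0653). Its other tested probe sets rose by 1.00 (SE 0.16, limma adjusted p = 0.00316) and 0.75 (SE 0.14, limma adjusted p = 0.00877), and both kept their calls in all 6 fits. Alas2, the first enzyme of erythroid haem synthesis, had 16110, 20980 and 11580 in wt and 27890, 20310 and 22540 in ko, which overlapped (0.57, SE 0.20, limma adjusted p = 0.161).

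Globins and red cell enzymes showed the weakest differences of the erythroid lists, with 3 of 12 called higher, 0 lower and a median of 0.36. Fn3k, which repairs glycated proteins, rose by 1.17 (SE 0.22), Prdx2, a peroxidase, by 0.82 (SE 0.18) and Nt5c3, a nucleotidase, by 0.74 (SE 0.16). All of these lost their calls without ko replicate 3, wt replicate 1 or wt replicate 3, and Prdx2 and Nt5c3 also without ko replicate 1 or 2, with limma adjusted p of 0.14 at most. The beta globin gene Hbb-b2 had signals of 2805, 3026 and 3800 in wt and 3989, 5535 and 3294 in ko, which overlapped (0.39, SE 0.19, limma adjusted p = 0.333). Its probe set is of the x_at kind, which can cross-hybridise with related transcripts.

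Regulators of red cell development were also higher, with 9 of 32 called, 0 lower and a median of 0.56. Tal1 had signals of 1858, 2259 and 1410 in wt and 4175, 4494 and 4338 in ko (1.25, SE 0.16, limma adjusted p = 0.000558). Sox6, which silences embryonic globin, had 582.8, 779.1 and 483.1 in wt and 1479, 1433 and 1502 in ko (1.24, SE 0.16, limma adjusted p = 0.000644). Epor, the erythropoietin receptor, had 527.5, 998.8 and 625.6 in wt and 1816, 2010 and 2045 in ko (1.46, SE 0.25, limma adjusted p = 0.006). The ko spleens of these genes lay within a narrow band well above all wt spleens. Nfe2, a factor shared by erythroid and megakaryocyte cells, rose by 1.22 (SE 0.20), as did the cell cycle factor E2f2 (SE 0.20), and these 5 kept their calls without each array in turn. Klf1 rose by 1.21 (SE 0.23) and Gata1 by 1.17 (SE 0.24). Both were lost without ko replicate 3, wt replicate 1 or wt replicate 3, and Gata1 also without ko replicate 1 (limma adjusted p of 0.0642 and 0.0931 at most). The count of 9 became 6, 9 or 5 without ko replicate 1, 2 or 3 and 5, 12 or 5 without wt replicate 1, 2 or 3. With every probe set of these genes counted, the median was 0.36.

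Epor is shown with the 250 bases before its start (chr9:21963577-21963826, minus strand, GRCm38.p6, RefSeq), since it is the receptor of this pathway and holds 1 GATA match, in capitals, 54 bases before the start:

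Epor: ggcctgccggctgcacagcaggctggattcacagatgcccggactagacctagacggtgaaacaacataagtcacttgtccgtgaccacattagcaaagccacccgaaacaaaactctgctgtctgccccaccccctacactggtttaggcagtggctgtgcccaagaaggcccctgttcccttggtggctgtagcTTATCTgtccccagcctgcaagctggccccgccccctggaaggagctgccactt

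The GATA letters searched were AGATAA and TTATCT, one for each strand. They stood before 7 of the 28 erythroid regulators found in the promoter table, among them Epor, Sox6, Tal1 and Trim10, before 5 of 15 red cell membrane genes and before 4 of 28 megakaryocyte genes. Of all 27025 genes in the table, 11.4% held them.

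Megakaryocyte and platelet genes formed the next group, with 19 of 35 called higher, 0 lower and a median of 0.84. Megakaryocytes are the large polyploid cells that shed platelets, and mouse red pulp holds them throughout life. Alox12, the platelet lipoxygenase, had signals of 796, 796.8 and 443.1 in wt and 2538, 1713 and 1846 in ko (1.56, SE 0.22, limma adjusted p = 0.00147). Gp5, a subunit of the receptor for von Willebrand factor, had 720.1, 877.4 and 530.2 in wt and 2077, 1536 and 1603 in ko (1.27, SE 0.19, limma adjusted p = 0.002). Clec1b, the podoplanin receptor, had 1681, 1780 and 1521 in wt and 3316, 3465 and 2866 in ko (0.94, SE 0.13, limma adjusted p = 0.00157). No ko spleen overlapped a wt spleen in these genes.

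Further members called in all 6 fits with 1 array left out were Tubb1, the platelet beta tubulin (1.23, SE 0.18), Thbs1, thrombospondin 1 (1.33, SE 0.22), Gp1bb, another subunit of the receptor (1.46, SE 0.25), Rgs18 (0.76, SE 0.13) and Vwf (1.17, SE 0.20). Vwf is made by endothelium too. Of 29 endothelial genes, 19 had a positive log2 difference, against 6460 of all 12339 genes. The list summed to 36648 to 41196 in wt and 46805 to 49258 in ko, which did not overlap. The part of endothelium in the rise of Vwf was not tested. Pecam1, an adhesion molecule of endothelium, had 1179, 1221 and 1459 in wt and 1175, 1220 and 1127 in ko (-0.12, SE 0.18), and Cdh5, the endothelial cadherin, overlapped (0.25, SE 0.27). The 2 endothelial genes called were Vwf and the water channel Aqp1, which red cells also carry and which is in the red cell list. Pf4, platelet factor 4, had 6482, 6226 and 3444 in wt and 12670, 7296 and 11090 in ko (0.96, SE 0.22, limma adjusted p = 0.0304) and lost its call without ko replicate 1 or 3 or wt replicate 3 (0.155 at most). The count of 19 became 8, 13 or 11 without ko replicate 1, 2 or 3 and 15, 20 or 10 without wt replicate 1, 2 or 3. Stem and progenitor cell genes, 25 tested, had 0 calls by limma and a median of 0.07. Kit, the stem cell factor receptor, had 548.2, 547.4 and 760.7 in wt and 547.8, 808.2 and 476.4 in ko (-0.04, SE 0.22).

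Genes of cell division were higher in ko by similar, moderate amounts. Of 66 mitosis and spindle genes, 29 were called higher and 0 lower, with a median of 0.69. In 53 the ko arrays lay above all wt arrays, against 1637 of all 12339 genes. Of 59 DNA replication and S phase genes, 13 were called higher and 0 lower, with a median of 0.50. Cdca3, which triggers entry into mitosis, had signals of 582.3, 988.9 and 633 in wt and 1514, 1882 and 1851 in ko (1.25, SE 0.18, limma adjusted p = 0.00157). Clspn, claspin of the replication checkpoint, had 562.1, 693.6 and 451.2 in wt and 1218, 1428 and 1269 in ko (1.17, SE 0.16, limma adjusted p = 0.000882). E2f8, a repressor at the end of S phase, had 768.1, 867.5 and 533.2 in wt and 1834, 1594 and 1779 in ko (1.25, SE 0.19, limma adjusted p = 0.00214). These genes did not overlap between genotypes and kept their calls without each array in turn, as did Ect2, which acts in cytokinesis (0.83, SE 0.15), and E2f2.

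Of the called division genes, 2 of 29 mitosis genes and 3 of 13 replication genes were called in all 6 fits with 1 array left out, while 28 and 13 were called without wt replicate 2. Without ko replicate 1, 2 or 3 the 29 mitosis calls became 14, 6 or 2, and without wt replicate 1, 2 or 3 they became 7, 44 or 6. The 13 replication calls became 8, 5 or 3 without ko replicate 1, 2 or 3 and 6, 25 or 6 without wt replicate 1, 2 or 3. The list medians moved less over these fits, from 0.57 to 0.82 for mitosis and from 0.43 to 0.60 for replication. Mki67, the common proliferation marker, had 7686, 12540 and 5622 in wt and 11630, 12270 and 13720 in ko. Its wt replicate 2 reached the ko range, and it was not called (0.62, SE 0.24, limma adjusted p = 0.216). The replicative helicase subunit Mcm4 had 2540, 2676 and 2161 in wt and 2826, 3511 and 3063 in ko, with no overlap and no call (0.35, SE 0.15, limma adjusted p = 0.251).

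The summed signals of whole lists show how the spleens at 4 months compare with those at 1 month. Mature neutrophil genes summed to 26984, 27826 and 29738 in the wt spleens and 73625, 59661 and 75634 in the ko spleens at 4 months, and at 1 month to 42916 to 48423 in wt and 90824 to 97725 in ko. Red cell membrane genes summed to 60962, 86255 and 51113 in wt and 118740, 111040 and 124206 in ko at 4 months. At 1 month both genotypes were higher and overlapped, with 164441 to 207961 in wt and 166477 to 195088 in ko. Mitosis genes gave the same picture, with 86639, 114376 and 75260 in wt and 131959, 144411 and 144934 in ko at 4 months, against 230841 to 300738 in wt and 259136 to 272990 in ko at 1 month. Megakaryocyte genes differed from these in that the ko spleens at 4 months, at 73171 to 91377, lay above every other group, whose sums ran from 41117 to 64680. In the red cell and mitosis sums wt replicate 2, the array with pancreas transcripts, was the highest of the wt spleens at 4 months, and the part of that array in these results was not tested beyond the fits without it.

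**Figure D3:**
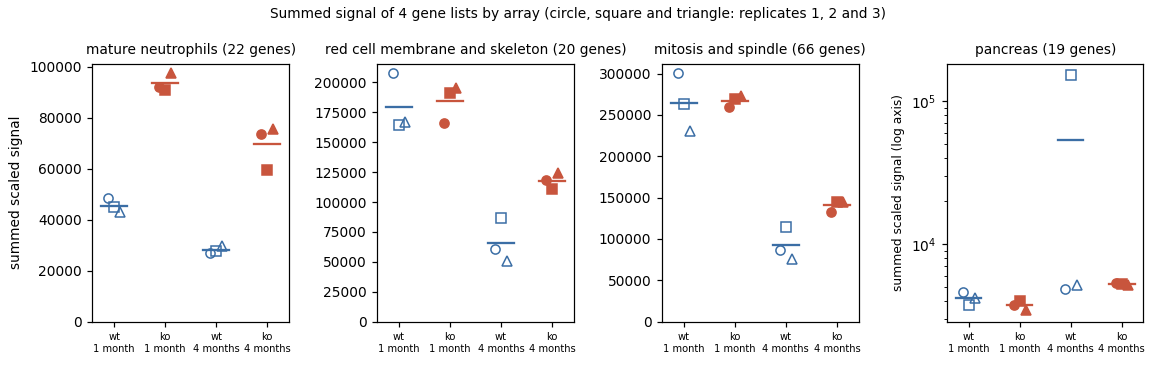
Summed scaled signal of 4 gene lists in all 12 arrays, by genotype and age, with the mean of 3 as a bar; the pancreas panel has a log axis. Neutrophil genes are higher in ko at both ages, red cell and mitosis genes separate the genotypes at 4 months and overlap at 1 month, and the pancreas sum stands out in wt replicate 2 at 4 months.

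Heat shock genes held the largest downward difference of ko from wt. Heat shock proteins are chaperones that hold or refold damaged proteins, and their genes are switched on within minutes by heat shock factor 1 when cells are warmed, starved of oxygen or otherwise stressed. Of 37 chaperone and cochaperone genes tested, 7 were called lower and 0 higher, with a median of -0.39. In 20 all ko spleens lay below all wt spleens, against 1302 of all 12339 genes. The inducible Hspa1a and Hspa1b lie side by side on chromosome 17. The 250 bases before their starts (chr17:34972157-34972406 and chr17:34959239-34959488, both minus strand, GRCm38.p6, RefSeq) are shown because they are alike at 247 of 250 positions and each holds a heat shock element, in capitals, 104 bases before the start:

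Hspa1a: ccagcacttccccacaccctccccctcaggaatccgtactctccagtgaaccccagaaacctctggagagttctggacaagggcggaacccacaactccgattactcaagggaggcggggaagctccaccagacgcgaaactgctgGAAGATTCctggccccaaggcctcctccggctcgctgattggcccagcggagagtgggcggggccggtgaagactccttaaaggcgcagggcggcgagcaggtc

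Hspa1b: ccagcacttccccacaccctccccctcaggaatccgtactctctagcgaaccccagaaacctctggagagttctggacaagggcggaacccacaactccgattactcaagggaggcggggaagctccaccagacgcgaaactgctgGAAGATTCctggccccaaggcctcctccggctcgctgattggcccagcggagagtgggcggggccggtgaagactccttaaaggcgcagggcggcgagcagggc

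The letters searched were GAANNTTC, which read the same on both strands. They stood before 10 of the 31 heat shock genes found in the promoter table and before 3 of the 7 called ones, Dnaja1, Hspa1a and Hspa1b, while 7.73% of all 27025 genes held them. As the pair of genes is nearly identical, their probe sets may read both transcripts, and their values are not independent.

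Hspa1b, by its a_at probe set, had signals of 3482, 2870 and 13210 in wt and 309.4, 459.2 and 443.9 in ko (-3.57, SE 0.48, limma adjusted p = 0.000859). The other Hspa1b probe sets stood at -3.61 and -3.52 and were called as well. Hspa1a had 787.6, 850.9 and 6959 in wt and 192.4, 141.1 and 113.1 in ko (-3.27, SE 0.55, limma adjusted p = 0.00523). In both genes wt replicate 3 was several times higher than the other wt spleens, and those in turn lay above every ko spleen. The cochaperone Dnaja1 had 11750, 13780 and 21250 in wt and 6011, 5366 and 6380 in ko (-1.35, SE 0.18, limma adjusted p = 0.000839). Dnajb1, which stimulates Hsp70, had 6400, 7354 and 10230 in wt and 3401, 3401 and 3354 in ko (-1.20, SE 0.15, limma adjusted p = 0.000558). Wt replicate 3 was the highest here too, by a smaller factor.

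Hsph1, an exchange factor for Hsp70, had 3667, 6428 and 14200 in wt and 2005, 1840 and 2192 in ko in its brighter probe set (-1.77, SE 0.32, limma adjusted p = 0.00877). With Hspa1a, Hspa1b, Dnaja1 and Dnajb1 it kept its call without each array in turn. Cacybp fell by 1.08 (SE 0.21) and lost its call without ko replicate 1 or 3 (limma adjusted p of 0.0676 at most). Chordc1, an Hsp90 cochaperone, fell by 1.08 (SE 0.26) and lost it without ko replicate 1, 2 or 3 or wt replicate 3 (0.155 at most). Without wt replicate 3, the highest array, 6 of the 37 were called lower, and without wt replicate 1 it was 9. The constitutive Hspa8 was called in 1 of its 4 probe sets, with 1721, 848.2 and 1879 in wt and 251, 350.7 and 418.2 in ko (-1.97, SE 0.25, limma adjusted p = 0.00058). Its other 3 probe sets stood between -0.36 and -0.22, were not called and were brighter.

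At 1 month the order was the other way round for Hspa1b, whose signals were 160.3, 439.7 and 751.3 in wt and 1399, 1504 and 1226 in ko, without a call at that age (1.76, SE 0.48, limma adjusted p = 0.109). The difference between the ages was -5.34 (SE 0.67, limma adjusted p = 0.00747). Hspa1a had 125.0, 151.1 and 244.3 in wt and 291.6, 455.8 and 342.6 in ko at 1 month. In both genes the wt spleens at 4 months lay above all other spleens of the series. The ko spleens at 4 months overlapped the wt spleens at 1 month. For Dnajb1, with 5534, 6020 and 5186 in wt and 5800, 5891 and 5656 in ko at 1 month, the difference between the ages was -1.26 (SE 0.21, limma adjusted p = 0.0445). Dnaja1 fell short of the threshold on this test (limma adjusted p = 0.0543), as did Hspa1a (0.0636). The summed signal of the heat shock list was 149220, 163630 and 250141 in wt and 113929, 120659 and 122968 in ko at 4 months, and 137498 to 148594 in wt and 154520 to 166558 in ko at 1 month. The genotypes did not overlap at either age, with ko below wt at 4 months and above it at 1 month. Ko spleens at 4 months thus summed lowest, and wt replicate 3 at 4 months highest.

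Immediate early genes, which respond to handling and stress, had a median of -0.08, where heat shock genes had -0.39. All ko spleens lay below all wt spleens in 9 of these genes and above in 3, against 1302 and 1637 of all 12339 genes. Of 32 tested, 1 was called lower, the matrix protein gene Ccn1 (-0.95, SE 0.22, limma adjusted p = 0.0334), and leaving out any 1 of the 6 arrays but wt replicate 2 ended that call (0.135 at most). Fos had signals of 412, 494 and 1003 in wt and 329.3, 470.9 and 416.8 in ko, which overlapped (-0.52, SE 0.26, limma adjusted p = 0.347). Jun had 947.6, 864.4 and 1746 in wt and 709.2, 609.4 and 646.2 in ko, which did not overlap (-0.76, SE 0.28, limma adjusted p = 0.186). In both, wt replicate 3 was again the highest spleen. Egr1 had 2213, 1750 and 1370 in wt and 1212, 911.8 and 1182 in ko, which did not overlap (-0.66, SE 0.18, limma adjusted p = 0.0694). There wt replicate 3 was the lowest wt spleen. The list summed to 48951 to 53299 in wt and 45618 to 50600 in ko, and its part in the heat shock result was not tested.

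**Figure D4:**
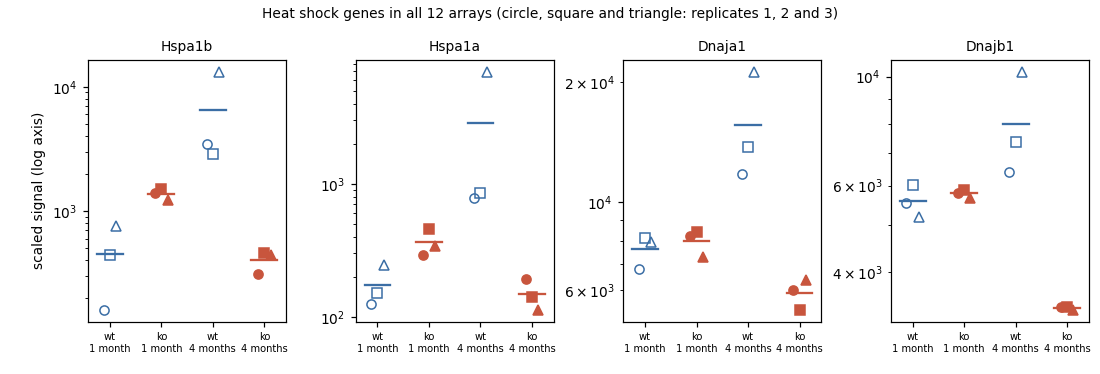
Scaled signal, on log axes, of Hspa1b, Hspa1a, Dnaja1 and Dnajb1 in all 12 arrays, with wt in open blue, ko in filled red, the shape for the replicate and the mean of 3 as a bar. At 4 months all ko spleens lie below all wt spleens in each gene, with Hspa1b at 309.4 to 459.2 in ko and 2870 to 13210 in wt, and wt replicate 3 is the highest.

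Immunoglobulin heavy chain probe sets gave both large and absent differences. Plasma cells secrete antibody whose heavy chain constant region sets its class, and IgG3 is the class typical of responses to carbohydrate antigens in mice. Ighg3 had signals of 1486, 1764 and 1441 in wt and 12310, 7191 and 5156 in ko (2.28, SE 0.25, limma adjusted p = 0.000115), with the ko spleens far apart but all above wt. A dimmer Ighg3 probe set overlapped between the genotypes (-0.07, SE 0.23). Of 7 probe sets that the annotation gives to Ighm, 4 were called higher, by up to 2.44. One of the x_at kind had 1411, 1484 and 1296 in wt and 7510, 4666 and 7805 in ko (2.19, SE 0.21, limma adjusted p = 3.25e-05). The brightest had 57110, 51250 and 23030 in wt and 59670, 29490 and 50710 in ko and was not called (0.13, SE 0.33, limma adjusted p = 0.887). It stood lowest in wt replicate 3 and ko replicate 2, the only arrays of the 6 whose highest signal was under 45000. These are not separate observations, since this probe set itself gave the highest signal in wt replicates 1 and 2 and ko replicate 1.

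The sequences of the Ighm probe sets were not examined. Of the 4 called, 3 are x_at probe sets, which can also read other heavy chain transcripts. Igha had 7128, 18690 and 16170 in wt and 23270, 17640 and 25190 in ko, which overlapped (0.75, SE 0.29, limma adjusted p = 0.206). None of 33 plasma cell and secretion genes was called by limma, and the median was -0.01. Xbp1, the factor that expands the secretory pathway, had 9081, 9349 and 10230 in wt and 10910, 11060 and 11600 in ko (0.23, SE 0.12, limma adjusted p = 0.392), with no overlap. Sdc1, the plasma cell surface proteoglycan, had 765, 711 and 490.5 in wt and 602.8, 483 and 557.1 in ko, which overlapped (-0.23, SE 0.18).

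Genes of the 2'-5'-oligoadenylate synthetase family of antiviral proteins split by member. Oas1a had signals of 773.5, 653.6 and 787.5 in wt and 34.15, 86.38 and 19.87 in ko (-3.37, SE 0.31, limma adjusted p = 1.78e-05). Oas1b had 281.7, 388.3 and 348.3 in wt and 28.48, 22.79 and 4.685 in ko (-2.90, SE 0.36, limma adjusted p = 0.00052). Their neighbour Oas1c had 180.7, 143.3 and 167.2 in wt and 162.3, 165.3 and 135.2 in ko, with the genotypes overlapping (-0.07, SE 0.25). Oas3 rose, from 451.7, 390.2 and 279 in wt to 1145, 631 and 652 in ko (1.02, SE 0.23, limma adjusted p = 0.0282), and lost its call without ko replicate 1 or 3 or wt replicate 3 (0.142 at most). The falls of Oas1a and Oas1b kept their calls without each array in turn.

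Other interferon-stimulated genes gave few calls, 2 of 47 higher and 0 lower, close to the share among all genes, with a median of 0.16. Yet all ko spleens lay above all wt spleens in 18 of them and below in 9, against 1637 and 1302 of all 12339 genes. The list summed to 105777 to 106899 in wt and 117235 to 133129 in ko, which did not overlap. Isg20, an RNA exonuclease, had signals of 3207, 5144 and 2741 in wt and 9601, 6963 and 7510 in ko (1.15, SE 0.21, limma adjusted p = 0.00821) and kept its call without each array in turn. Irf7, a regulator of the interferon response, had 866.3, 1068 and 977.6 in wt and 3064, 1417 and 1859 in ko (1.03, SE 0.25, limma adjusted p = 0.0413). It lost its call without replicate 1 or 3 of either genotype (0.197 at most). Rsad2, viperin, was called in 1 probe set, with 2754, 3368 and 2474 in wt and 7990, 6474 and 5583 in ko (1.21, SE 0.16, limma adjusted p = 0.00104), while its brighter one at 0.81 was not. Mx1, a classic interferon target, overlapped between the genotypes (-0.24, SE 0.26).

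B cell genes were lower in ko where they were called. Of 31 tested, 5 (16.1%) were called lower and 0 higher, against 0.478% of all genes called lower. In 15 all ko spleens lay below all wt spleens, against 1302 of all 12339 genes. The list had a median of -0.30 and a summed signal of 188483 to 251916 in wt and 178802 to 241204 in ko. Cd83, an activation marker, had signals of 4885, 4217 and 6521 in wt and 2762, 2513 and 2786 in ko (-0.92, SE 0.19, limma adjusted p = 0.0159). Bach2, which restrains plasma cell differentiation, had 4551, 3228 and 2669 in wt and 2095, 1750 and 1667 in ko (-0.88, SE 0.18, limma adjusted p = 0.0176). Tnfrsf13c, the BAFF receptor, fell by 0.76 (SE 0.17), S1pr3 by 0.86 (SE 0.19) and Spib by 0.65 (SE 0.15). The genotypes did not overlap in these genes, yet none kept its call in all 6 fits: 2, 1 or 0 were called without ko replicate 1, 2 or 3 and 1, 4 or 1 without wt replicate 1, 2 or 3. Ms4a1, which encodes CD20, had 12500, 13200 and 13560 in wt and 9833, 8780 and 8840 in ko (-0.52, SE 0.14, limma adjusted p = 0.0737). Rag1 was near background in ko, with 20.78, 4.842 and 1.451 against 254.7, 104 and 40.72 in wt (-1.82, SE 0.41, limma adjusted p = 0.0295), and lost its call without ko replicate 2 or 3 or wt replicate 1 (0.131 at most).

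Several other resident cell types showed no call. Of 27 T cell genes and 23 NK and cytotoxic genes, 0 were called by limma, with medians of -0.07 and 0.01. The log2 difference was positive in only 7 of these T cell genes, and in 12 of the NK and cytotoxic genes. Cd3d, a chain of the T cell receptor complex, had signals of 4163, 4294 and 3630 in wt and 3301, 3072 and 3763 in ko (-0.25, SE 0.16). Of 51 stroma and matrix genes, 21 MHC class II presentation genes and 21 white pulp chemokine and lymphotoxin genes, 0 were called, with medians of -0.01, -0.06 and -0.22. Yet the white pulp list summed to 89345 to 103611 in wt and 74831 to 85388 in ko, which did not overlap. The log2 difference was positive in 6 of its genes. All ko spleens lay below all wt spleens in 5 of them and above in 0, against 1302 and 1637 of all 12339 genes. Of 46 ribosomal protein genes and 45 proteasome genes, 0 were called, with medians of 0.05 in both. Of 19 red pulp macrophage genes 1 was called higher, Cd5l (0.60, SE 0.15). Of 9 marginal zone macrophage genes 1 was called lower, Timd4, a receptor for dying cells (-0.57, SE 0.14). Of 26 dendritic cell genes 2 were called lower, Cd83 and Ccr9. Cd83 is also in the B cell list, and Ccr9, a receptor of plasmacytoid dendritic cells, stood at -0.97 (SE 0.22). Of all genes 2.48% were called higher and 0.478% lower. All ko spleens lay below all wt spleens in 9 dendritic cell, 4 marginal zone and 1 red pulp genes. They lay above in 1, 1 and 5. Dendritic cell genes summed to 53773 to 60087 in wt and 51149 to 52110 in ko, without overlap. Marginal zone genes summed to 9177 to 11511 in wt and 6934 to 7178 in ko, also without overlap. The calls of Cd5l, Timd4 and Ccr9 ended when any 1 of the 6 arrays but wt replicate 2 was left out (limma adjusted p of 0.198 at most).

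Of the 365 called genes, 212 are in no list, 174 higher and 38 lower, and 41 of these kept their calls in all 6 fits with 1 array left out. The following genes were picked from the latter after their values were seen. Zhx2, a zinc finger and homeobox repressor, had signals of 184.8, 112.9 and 114.1 in wt and 731.9, 494.5 and 661 in ko (1.97, SE 0.22, limma adjusted p = 0.000123). Apol11b had 205.7, 242.3 and 507.6 in wt and 1027, 947.6 and 1487 in ko (1.83, SE 0.29, limma adjusted p = 0.00309), and Apol8, of the same apolipoprotein L family, had 679.4, 1066 and 636.5 in wt and 2041, 2390 and 2737 in ko (1.58, SE 0.18, limma adjusted p = 0.000188). Npy, neuropeptide Y, had 322, 533.9 and 218.5 in wt and 1058, 993.8 and 957.1 in ko (1.49, SE 0.26, limma adjusted p = 0.00599). The ko spleens lay above all wt spleens in each of these genes.

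Several more of these genes were supported by more than 1 probe set. Prkar2b, a regulatory subunit of protein kinase A, rose in 3 probe sets by 1.03, 0.85 and 0.82. Metap2, which removes the first methionine of new proteins, rose in 2 by 1.23 and 0.90, and Pip5k1b, a lipid kinase, in 2 by 1.10 and 1.07. Slc7a5, an importer of large amino acids, rose by 1.32 (SE 0.23), Ppp1r15a, which lifts the translation block of the stress response, by 1.25 (SE 0.22), and Gclm, of glutathione synthesis, by 1.10 (SE 0.18). Agtr1a, the angiotensin II receptor, had 1142, 1342 and 1260 in wt and 2572, 2590 and 2689 in ko (1.05, SE 0.15, limma adjusted p = 0.00176). The 3 ko values of Agtr1a differed from each other by less than the 3 wt values did.

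On the lower side, Ctps2, a CTP synthase, had signals of 1438, 935.5 and 1066 in wt and 227.6, 195.5 and 151.3 in ko (-2.39, SE 0.20, limma adjusted p = 6.28e-06). Fabp7, a fatty acid binding protein best known from brain, had 335.5, 332.2 and 304.5 in wt and 17.99, 68.82 and 118.1 in ko (-1.97, SE 0.31, limma adjusted p = 0.00351). Neither gene overlapped between the genotypes. Slc5a3, the myo-inositol transporter, had 1171, 876.5 and 2500 in wt and 447.9, 387.4 and 387.5 in ko in its brighter probe set (-1.68, SE 0.28, limma adjusted p = 0.00471), with wt replicate 3 again the highest. Cisd2, an iron-sulfur protein of mitochondria and endoplasmic reticulum, fell by 1.18 (SE 0.18), Brwd1, a chromatin reader, by 1.03 (SE 0.16) and Lemd3, of the nuclear envelope, by 1.32 (SE 0.22). A dimmer Ctps2 probe set overlapped and was not called (0.19, SE 0.38).

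Of the 621 probe sets called at 4 months, 43 were also called among the 120 (0.444%) called at 1 month, which is 6.92% of the first set and 35.8% of the second. The count of 120 was 63, 67 or 36 without ko replicate 1, 2 or 3 at 1 month, and 41 or 1590 without wt replicate 2 or 3 at 1 month. At 1 month the highest signal was under 45000 in all 3 ko arrays and in wt replicate 3, but not in wt replicates 1 and 2. Genotype is thus partly confounded with this array set at 1 month. With the array set as a block, 45 were called at 1 month, 31 higher and 14 lower, where the 120 were 55 higher and 65 lower. All 43 had the same direction at both ages, 30 higher and 13 lower. The 30 include the granule and calprotectin genes Lcn2, Prtn3, Ngp, Elane, Camp, Mpo, Ltf, S100a8 and S100a9, and also Zhx2 and Slfn4. The 13 lower ones are probe sets of Oas1a, Oas1b, Ctps2, Il1rn, G530011O06Rik, Sesn3, Dnah8, Zfp148, Rtf2 and Cmah, with 2 each for Rtf2 and Cmah, and 1 without a gene name. Zfp148, a zinc finger factor, had 2822, 2640 and 2704 in wt and 1518, 1474 and 1636 in ko at 4 months (-0.81, SE 0.15, limma adjusted p = 0.0103), and stood at -0.87 at 1 month. A call at one age only is not a difference between the ages, which needs its own test.

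That test called 13 probe sets (0.0481%), 8 with a more positive (0.0296%) and 5 with a more negative difference (0.0185%) at 4 months, and 12 of them were also called at 4 months. With each array centred on its median, 9 were called, 4 and 5. The confounding of genotype with array set at 1 month enters this test too. With the array set as a block, 9 were called, 6 and 3. The 8 more positive ones in the main fit were 2 of Ighm and 1 each of Ighg3, 6030468B19Rik, Apol8, Rsad2, Cyp4b1 and Mcpt4. Ighg3 had signals of 469.2, 334.7 and 576.1 in wt and 390.1, 395.3 and 463.6 in ko at 1 month, well below both groups at 4 months. 6030468B19Rik fell to 13.49, 26.01 and 16.25 in wt at 4 months, from 338.6 to 583.7 at 1 month, while ko spleens had 242.5, 327.7 and 150.5 at 4 months. Cyp4b1, a fatty acid hydroxylase, had 1200, 1402 and 1209 in wt and 2519, 2538 and 2684 in ko at 4 months (1.01, SE 0.13, limma adjusted p = 0.000819) and overlapped at 1 month.

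Apol8 and Rsad2 shared a pattern over the 4 groups. At 1 month Apol8 had 4010 to 5023 in wt and 4171 to 4889 in ko, and at 4 months wt spleens had 636.5 to 1066 and ko spleens 2041 to 2737. Rsad2 had 6818 to 9205 in wt and 6267 to 7428 in ko at 1 month. Both genes were therefore lowest in the wt spleens at 4 months. Mcpt4, a mast cell protease, was the probe set not called at 4 months, with 169.5, 360.2 and 278.6 in wt and 244.5, 429.6 and 341.2 in ko, while at 1 month it had 311.1 to 423.6 in wt and 16.44 to 26.8 in ko. The count of 13 was 48 without wt replicate 3 at 1 month, 92 without wt replicate 2 at 4 months, 5 without ko replicate 1 or 2 at 1 month, 8 without ko replicate 3 at 1 month, and 6 or 7 without ko replicate 1 or 2 at 4 months.

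**Figure D5:**
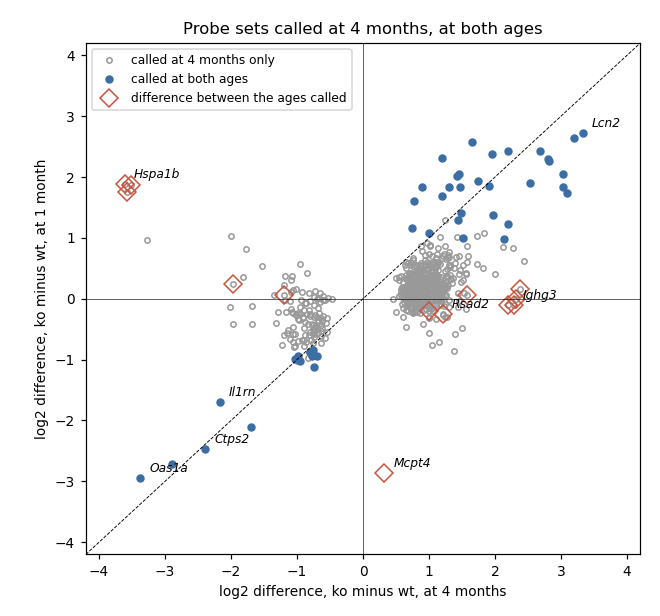
Log2 difference, ko minus wt, at 4 months (x axis) and at 1 month (y axis) for the 621 probe sets called at 4 months and for Mcpt4; the dashed line marks equal differences. Blue points were called at both ages (43) and lie in the upper right and lower left, red diamonds are the 13 called for the difference between the ages, and most of the rest lie near 0 at 1 month.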

How the data were processed

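Total RNA from 12 mouse spleens was hybridised to 1 Affymetrix array each, per the labels. The deposited values are probe set signal intensities on a linear scale, made with MAS5 per the submitters' processing notes. Its version, the annotation used and any later scaling by the authors are not given in the sources used here. Of 45101 probe sets, 64 controls were left out. Of the rest, 34945 had 1 gene symbol in the platform annotation, 932 had several and 9160 none, and those with several are not named. Scaling to a trimmed mean of 500, with 2% trimmed, was applied to every array here, and probe sets with a signal of 100 in at least 3 arrays were kept.

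Log2 of signal plus 32 was fitted with limma 3.58.1 in R 4.3.3, with a mean for each of 4 groups (12 arrays, 8 residual degrees of freedom), eBayes with a trend, two-sided tests and Benjamini-Hochberg adjustment over all 27041 probe sets. The script was first tested on simulated data. Labels give each array its own mouse, so the spread is between mice. The members and lists were chosen with earlier results of these data known.

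The genes named were drawn from Il1rn and the 15 highest and 15 lowest called genes without overlap between the groups. To these came up to 8 called members of each list by adjusted p and up to 3 members in list order. The 10 with the smallest adjusted p for the difference between ages were added. Not all are described above. Called genes left out include Ptdss2, Adgrg1, Ifitm6, Stfa2l1 and Slc6a4, which were higher in ko. Lox, Nfkbie (-0.77, SE 0.19), 1 of 20 NF-kB genes tested, and Bcl6 (-0.80, SE 0.19), 1 of 13 germinal centre genes tested, were lower. Each of these lost its call without at least 1 of the 6 arrays. Other genes were named after their values were seen. Alternatives were the offset, filter, scaling, trend, array weights, array set, replicate block, threshold and leaving out each array.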

Additional observations from a re-analysis of the deposited data

Results flagged for a closer look

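For 11 of the 13 probe sets called for a different genotype effect at the 2 ages, the difference (4 months minus 1 month, log2, limma) is given here with its SE. Heat shock probe sets were the lower ones. Hspa1b differed by -5.5 (SE 0.73, limma adjusted p = 0.00747) and -5.34 (SE 0.67, limma adjusted p = 0.00747) in 2 probe sets. Hspa8 differed by -2.22 (SE 0.35, limma adjusted p = 0.0278) in its dimmest probe set, and Dnajb1 by -1.26 (SE 0.21, limma adjusted p = 0.0445).

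Mcpt4 had the largest difference in the other direction, 3.18 (SE 0.37, limma adjusted p = 0.00596), from a lower signal in ko at 1 month. The immunoglobulin probe sets followed, with Ighg3 at 2.39 (SE 0.35, limma adjusted p = 0.0143) and Ighm at 2.3 (SE 0.30, limma adjusted p = 0.00747). 6030468B19Rik differed by 2.22 (SE 0.36, limma adjusted p = 0.0332). Apol8 differed by 1.52 (SE 0.25, limma adjusted p = 0.0406), Rsad2 by 1.47 (SE 0.23, limma adjusted p = 0.0278) and Cyp4b1 by 1.21 (SE 0.19, limma adjusted p = 0.0253).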

How the results depend on the processing

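The count of 621 probe sets called at 4 months was 248 without a trend in the prior variance, 362 with only the 6 arrays fitted, 84 within the arrays whose highest signal passed 45000, 276 within the low array set, 1092 at an adjusted p under 0.10, 259 with at least a 2-fold change, and 161 to 991 without 1 array. The low set at 4 months holds 1 ko and 1 wt array, so that fit takes its spread from the 3 ko arrays at 1 month, and the lone arrays are assumed to vary like them. The count of 120 at 1 month was 45 with the array set as a block, 41 with both blocks, 77 without the filter, 68 without the trend, 47 with only the 6 arrays, 32 within the low array set (1 wt array), 392 at an adjusted p under 0.10, and 36 to 1590 without 1 array. The 13 called for the difference between ages were 30 with array weights, 8 without the filter, 1 without the trend, 31 at an adjusted p under 0.10, and 5 to 92 without 1 array. The other alternatives kept these 3 counts within 1.5 times. Without wt replicate 2 at 4 months, 571 of the 621 were still called. With the replicate block 563 were called, 522 of them shared, but same-numbered spleens did not deviate together (r of -0.201 to 0.048), so the numbers do not pair the mice. Of the named genes, Ighm in its brightest probe set changed sign, from 0.13 to -0.07 without ko replicate 1 (limma adjusted p = 0.969) and -0.28 without wt replicate 3 (limma adjusted p = 0.731), the lowest of a range that reached 0.43 without ko replicate 2. The cause of these changes was not tested. Dim probe sets are limited by background, and 3 mice a group limit all values.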
